A study of Mus musculus with 7 samples.

Results

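Cish and Socs1 to Socs7, the 8 genes of the suppressor of cytokine signaling (SOCS) family, were examined in bone marrow-derived dendritic cells (BMDCs) that had been sorted into immature and mature cells. Members were taken by gene symbol, which found 8 of the 28666 genes in the table, each under 1 gene identifier. The marrow came from female C57BL/6 mice of 6 to 8 weeks and was grown for 7 days in GM-CSF (20 ng/mL) and IL-4 (10 ng/mL). The BMDCs were then kept in a Transwell with MC38, a line of mouse colon carcinoma cells, and were sorted after 24 h of DON (5 µM), an antagonist of glutamine metabolism. The study's text gives DON for the sorted cells, but its drawing of the design names DMSO as well, and the labels give no agent for any library, so that it is not settled whether all libraries came from cultures with DON. All share the GM-CSF and IL-4 culture. The groups are 3 immature and 4 mature libraries, which differ in the sorted maturation stage. The surface markers of the sort are not given. The study's methods say in general that experiments were repeated as independent biological ones, and the labels do not name the animal or culture behind each library, so that the p-values below measure the spread between these libraries. Total counts ran from 54846746 in mature replicate 3 to 67973086 in immature replicate 3.

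SOCS proteins dampen cytokine signaling. Cytokine receptors activate Janus kinases (JAKs), which phosphorylate STAT transcription factors, and STATs in turn switch on SOCS genes, closing a feedback loop. Each SOCS protein has an SH2 domain that binds phosphotyrosine and a C-terminal SOCS box that binds elongins B and C and recruits the Cullin 5 ubiquitin ligase. GM-CSF signals mainly through JAK2 and STAT5, with Cish and Socs2 as classic STAT5 targets, and IL-4 through JAK1, JAK3 and STAT6. Socs1 restrains interferon signaling and Socs3 signaling through gp130, whereas Socs4 to Socs7 are less tied to cytokine induction.

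Before the members, the libraries were checked against cell type markers. Itgax (CD11c), a defining gene of dendritic cells, had 253 ± 11.5 FPKM in immature (SD, n = 3) and 206 ± 30.8 FPKM in mature cells (SD, n = 4). FPKM are fragments scaled by gene length and by library total, a level per length. The summed level of 8 mature dendritic cell markers, of which Ccl22 was the most abundant, was 488 to 507 FPKM in the immature and 5146 to 5850 FPKM in the mature libraries, so the labels fit the marker genes. Lamp3 was the exception, under 0.1 FPKM in all libraries. Elsewhere the study counts cells with both CD80 and CD86 as mature, and both genes are on this list. If the sort used them, their rise is no separate check of the labels. The 7 dendritic cell markers summed to 4013 to 4157 and 4997 to 6823 FPKM, with Cd74 the most abundant. The 8 macrophage markers, led by Cd68, summed to 894 to 930 FPKM in immature and 165 to 188 FPKM in mature cells, and all 8 fell.

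Cell types other than these were nearly absent. The neutrophil, T cell, B cell, NK cell and mast cell lists each summed to under 4 FPKM in each library, with a highest sum of 3.73 FPKM. The erythroid list summed to at most 0.31 FPKM in immature and 1.44 to 4.61 FPKM in mature libraries, where Hbb-bt was the highest. The 5 epithelial markers summed to 17.3 to 21.3 FPKM in immature and 13.8 to 21.6 FPKM in mature libraries, mostly Cdh1. Whether tumor cells or the sorted cells themselves brought these transcripts was not tested. Cardiac muscle transcripts, with Mb the highest in mature cells, were different. Their 8 markers summed to 1.82 to 1.97 FPKM in the immature libraries, 12.3 FPKM in mature replicate 1, and 266, 281 and 262 FPKM in mature replicates 2, 3 and 4.

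Mature replicate 3 also stood apart in a second respect. Its counts, relative to the other mature libraries, fell with exon length, from a median log2 ratio of 0.42 over 4364 tested genes with up to 2000 exonic bases to -0.39 over 2444 genes with more than 8000. The members lie between 2891 and 11349 exonic bases, so none is in the shortest class. Socs1 (2908 exonic bases) and Socs3 (2891 bases) were both 0.69 higher in this library on the log2 scale, against a median of 0.17 for genes of 2000 to 4000 bases, Cish (6419 bases) was at 0.04 and Socs2 (9531 bases) at -0.10. Socs6 (11349 bases) was at -0.33, Socs5 (6416 bases) at -0.39, Socs7 (7265 bases) at -0.44 and Socs4 (6877 bases) at -0.70. Members with the shortest transcripts were thus the 2 that were highest in this library, and the fold changes and levels of the members are given below also without it.

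**Figure D1:**
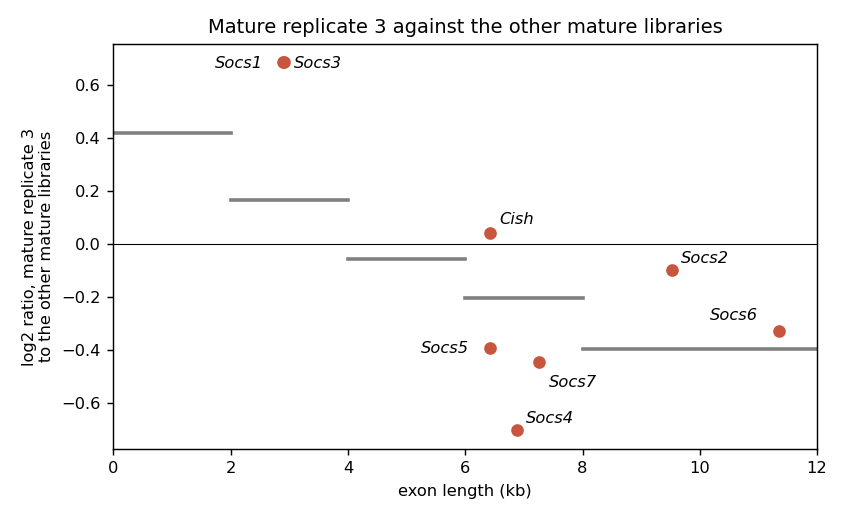
Mature replicate 3 over the average of mature replicates 1, 2 and 4 as a log2 ratio (y axis) against exon length in kilobases (x axis) for the 8 family members (points), with the median over all tested genes in each length class (grey bars, 0.42 for the shortest and -0.39 for the longest, where the last bar holds all genes over 8000 exonic bases). Socs1 and Socs3, the shortest members, lie at 0.69, and Socs4 lies lowest at -0.70.

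All 8 members were expressed and tested, with 631 to 27271 counts per library. Values within a gene are given as CPM, counts scaled by library total and TMM factor. A gene was past the criteria where its log2 fold change between mature and immature cells was at least 1 in size and its adjusted p in edgeR's quasi-likelihood test was under 0.05. Socs2 rose 2.81-fold and Socs6 fell 3.80-fold, and these 2 of 8 were past the criteria, against 23.1% of the 17461 genes tested. By adjusted p alone 5 of 8 passed, Cish, Socs1, Socs2 and Socs5 higher and Socs6 lower, against 46.1% of all genes. The groups did not overlap for 5 of 8 members, against 52.1% of all genes, so the family as a whole changed about as often as genes in general and the results concern single members.

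**Figure D2:**
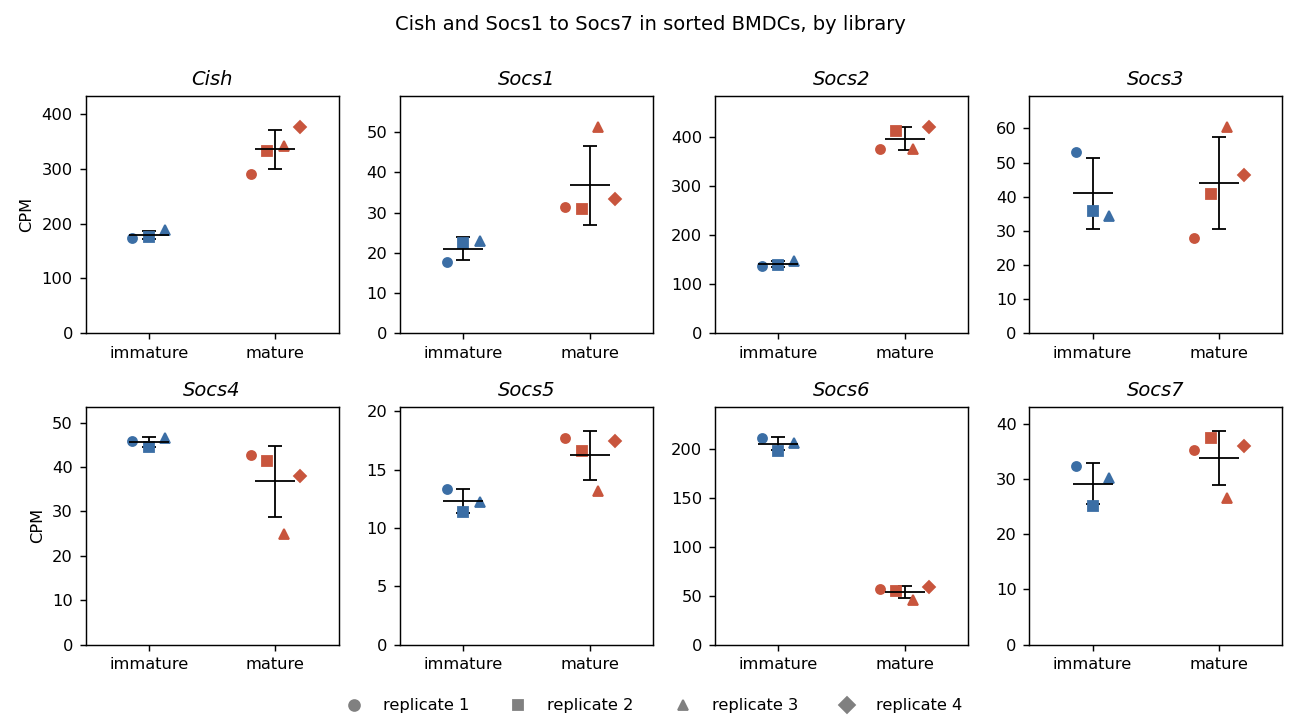
CPM of each family member in each library (y axis from 0, one scale per panel), with immature libraries in blue, mature libraries in red, symbols by replicate number, and the group mean with its SD in black. Socs2 and Cish lie higher in all 4 mature libraries, Socs6 lies lower in all 4, and Socs3 overlaps between the groups.

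Cish, an SH2 protein induced by STAT5 that dampens STAT5 signaling, rose in mature cells. Cish (ENSMUSG00000032578, chr9:107296026-107302784, plus strand, GRCm38) had 174, 176 and 187 CPM in the immature and 291, 333, 342 and 377 CPM in the mature libraries. Every mature library lay above every immature one, with the lowest mature value in replicate 1. The means were 179 ± 7.48 CPM (SD, n = 3) and 335 ± 35.4 CPM (SD, n = 4). The log2 fold change of 0.91 (SE 0.10, edgeR adjusted p = 0.000105) was just short of the fold criterion. It crossed that criterion in some alternatives, at 1.02 under upper quartile normalization, 1.01 in limma on log2(FPKM + 0.1) and 1.01 without mature replicates 1 and 3. Without mature replicate 3 it was 0.92. Against mature replicate 1 alone, the mature library with the fewest cardiac muscle transcripts, it was 0.73. The pseudogene Gm17040 lies on the opposite strand over the start of Cish and held 13 to 51 counts, against 9765 to 23569 for Cish. Whether counting used strand is not stated.

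Socs2, another STAT5 target and the regulator of growth hormone receptor signaling, showed the largest rise of the family. Socs2 (ENSMUSG00000020027, chr10:95385362-95417180, minus strand) was at 136, 138 and 148 CPM in immature and 375, 412, 376 and 420 CPM in mature cells. The lowest mature library was far above the highest immature one, and the 4 mature libraries lay close together. Means were 141 ± 6.24 (SD, n = 3) and 396 ± 23.96 CPM (SD, n = 4), and the log2 fold change was 1.49 (SE 0.08, edgeR adjusted p = 1.9e-06). Without mature replicate 3 it was 1.54, and with mature replicate 1 as the only mature library 1.44.

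Socs1, which inhibits JAKs directly through a kinase inhibitory region, also rose, but by an amount that depended on a single library. Socs1 (ENSMUSG00000038037, chr16:10782240-10785536, minus strand) had 17.8, 22.5 and 22.8 CPM in immature and 31.4, 31.0, 51.3 and 33.3 CPM in mature libraries. The groups did not overlap, and mature replicate 3 was well above the other mature libraries. The log2 fold change was 0.81 (SE 0.20, edgeR adjusted p = 0.00975), a 1.75-fold higher mean. Without mature replicate 3 it was 0.63 (edgeR adjusted p = 0.0006) and the rise was smaller, with the other 3 mature libraries close together.

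Socs3, the inhibitor of gp130 and G-CSF receptor signaling that shares the kinase inhibitory region with Socs1, did not pass the test. Socs3 (ENSMUSG00000053113, chr11:117966079-117970047, minus strand) had 53.0, 35.8 and 34.2 CPM in immature and 28.0, 40.9, 60.5 and 46.3 CPM in mature cells. Its values varied within both groups more than between them, with both the lowest and the highest library of the series in the mature group. The log2 fold change was 0.10 (SE 0.25, edgeR adjusted p = 0.78). Its sign changed without mature replicate 3 (-0.07), without immature replicate 3 (-0.02) and against mature replicate 1 alone (-0.52), so no direction can be given.

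Socs6, whose protein binds the receptor tyrosine kinase KIT and other tyrosine-phosphorylated proteins, showed the largest change of the family in either direction. Socs6 (ENSMUSG00000056153, chr18:88665224-88894352, minus strand) had 211, 198 and 206 CPM in the immature libraries. In mature libraries it had 56.5, 54.9, 45.4 and 59.3 CPM. The highest mature library was well below the lowest immature one. The means were 205 ± 6.83 (SD, n = 3) and 54.0 ± 6.05 CPM (SD, n = 4), and the log2 fold change was -1.93 (SE 0.10, edgeR adjusted p = 1.4e-06). It was -1.83 without mature replicate 3 and -1.84 with mature replicate 1 as the only mature library. The 8 macrophage markers fell in the same libraries, and their part in the result was not tested. In sorted bulk samples fewer cells of a type and less RNA per cell cannot be told apart.

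Socs4, Socs5 and Socs7, members with roles in growth factor receptor signaling or insulin signaling, changed little. Socs4 (chr14:47276931-47296102, plus strand) had 45.7, 44.4 and 46.6 CPM in immature and 42.7, 41.3, 24.9 and 38.0 CPM in mature cells. The CPM values did not overlap, with mature replicate 3 the lowest, whereas in FPKM the groups did overlap. Its log2 fold change was -0.31 (SE 0.17, edgeR adjusted p = 0.17), and -0.14 without mature replicate 3.

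Socs5 (chr17:87107679-87137839, plus strand) had 13.4, 11.3 and 12.2 CPM in immature and 17.7, 16.6, 13.1 and 17.4 CPM in mature cells. Mature replicate 3 fell among the immature libraries and the other 3 lay above them. The log2 fold change was 0.40 (SE 0.13, edgeR adjusted p = 0.037), and the adjusted p was over 0.05 in 9 of 18 alternatives. Without mature replicate 3 it was 0.51 (edgeR adjusted p = 0.0014).

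Socs7 (chr11:97362435-97398542, plus strand) had 32.3, 25.1 and 30.1 CPM in immature and 35.2, 37.4, 26.6 and 35.9 CPM in mature cells. Only mature replicate 3 lay within the immature range. The log2 fold change was 0.21 (SE 0.14, edgeR adjusted p = 0.26). Without mature replicate 3 it was 0.34 (edgeR adjusted p = 0.013), when 57.4% of 16954 genes passed by adjusted p alone.

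**Figure D3:**
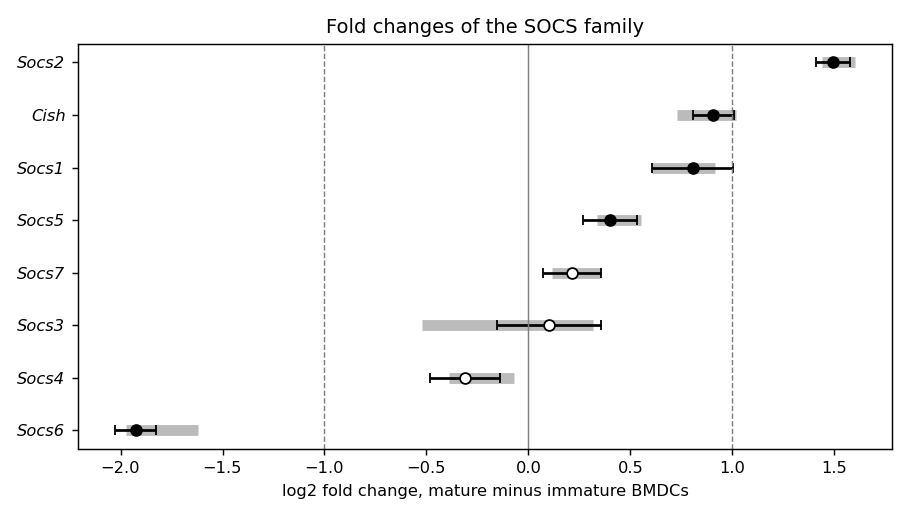
Log2 fold change of each member, mature minus immature (x axis), with its SE, from edgeR on all 7 libraries. Filled points have an adjusted p under 0.05, grey bars give the range over the 18 alternatives, and dashed lines mark a log2 fold change of 1 in size. Socs2 at 1.49 and Socs6 at -1.93 lie outside the dashed lines, and the range of Socs3 spans 0.

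Levels per length gave a different order of the family in the 2 stages. In immature cells Cish was highest at 24.5 ± 0.51 FPKM (SD, n = 3), followed by Socs6 at 15.9 ± 0.53, Socs2 at 12.9 ± 0.32 and Socs3 at 12.5 ± 3.28 FPKM. Socs1 had 6.35 ± 0.83, Socs4 5.82 ± 0.06, Socs7 3.47 ± 0.42 and Socs5 1.68 ± 0.14 FPKM. Neighbours in this order overlapped only for Socs2 with Socs3 and for Socs1 with Socs4.

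In mature cells Cish was again highest at 49.4 ± 5.32 FPKM (SD, n = 4) and Socs2 was next at 39.3 ± 3.68 FPKM. Socs3 had 14.3 ± 3.79 and Socs1 11.9 ± 2.50 FPKM, which overlapped. Socs4 at 5.09 ± 1.30 and Socs7 at 4.35 ± 0.80 FPKM each overlapped Socs6 at 4.52 ± 0.67 FPKM. Socs5 was lowest at 2.40 ± 0.40 FPKM. Socs6 moved from the second place to the sixth. With that group reduced to mature replicates 1, 2 and 4 the order was the same, with Cish at 50.3, Socs2 at 40.9, Socs3 at 12.9, Socs1 at 10.6, Socs4 at 5.72, Socs6 at 4.85, Socs7 at 4.74 and Socs5 at 2.60 FPKM. Socs4 then no longer overlapped Socs6.

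The summed level of the family was 86.3, 81.5 and 81.5 FPKM in immature and 119, 136, 128 and 142 FPKM in mature libraries. Every mature sum was above every immature one, and the mean was 1.58 times as high, or 1.52 times on the TPM scale. Cish made up 29.5% of the sum in immature and 37.6% in mature cells, and Socs2 15.6% and 30.0%. Socs6 made up 19.1% and 3.45%. The ratio of Socs2 to Socs6 in FPKM was 0.76, 0.83 and 0.85 in the immature libraries. It was 7.90, 8.93, 9.86 and 8.45 in the mature libraries, and the 2 sets did not come near each other. Cish over Socs2 was 1.89 ± 0.01 (SD, n = 3) in immature and 1.26 ± 0.10 (SD, n = 4) in mature cells, since Socs2 rose more than Cish.

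**Figure D4:**
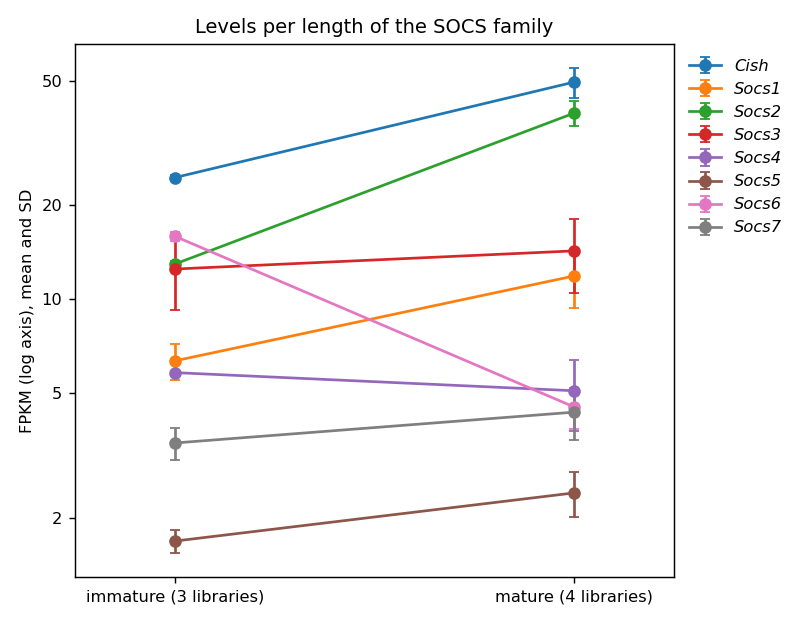
Mean FPKM with SD of each family member (y axis, log scale) in immature (3 libraries) and mature (4 libraries) BMDCs. Cish leads in both groups at 24.5 and 49.4 FPKM, Socs2 climbs from 12.9 to 39.3 FPKM, and Socs6 descends from 15.9 to 4.52 FPKM.

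The core of STAT binding sites is often written TTCNNNGAA, which reads the same on both strands. It was searched in the 250 bases before the start of each gene in RefSeq promoters of GRCm38.p6. Windows are described here for 4 of 8 members (Cish, Socs1, Socs3 and Socs4), and 7.02% of all 32851 windows hold the motif. RefSeq starts can lie inside the GENCODE spans given above, and for Cish and Socs3 they do. Of these 4, Socs3 held the motif, 154 to 146 bases before its RefSeq start and inside its GENCODE span, where it overlaps 0 exons, and the 29 bases around it (chr11:117969502-117969530, minus strand) are shown with the motif in capitals because this is the match found in the family.
Socs3: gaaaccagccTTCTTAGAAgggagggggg
No match in the other windows says only that these letters are not in that stretch.

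The kinases and factors upstream of the family were examined next, from lists chosen with earlier results of these data known. Over all genes 13.2% were past the criteria and higher and 9.95% lower, 23.2% were higher and 22.9% lower by adjusted p alone, and the median log2 fold change was 0.05. Of 4 Janus kinases 2 were past the criteria, both higher, with a list median of 1.13. Jak2, the kinase of the GM-CSF receptor, went from 96.4 ± 5.76 FPKM (SD, n = 3) to 297 ± 53.9 FPKM (SD, n = 4), with 217 FPKM in mature replicate 3 and 313 to 330 FPKM in the others, a log2 fold change of 1.51 (edgeR adjusted p = 2.5e-05). Without that library it was 1.63. Jak3, which serves receptors with the common gamma chain, went from 6.59 ± 0.35 to 23.0 ± 1.71 FPKM (1.69, edgeR adjusted p = 6.6e-07). Tyk2 rose by 0.76 on the log2 scale, and Jak1 was at -0.19 (edgeR adjusted p = 0.27), or -0.055 without mature replicate 3.

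Among 7 STATs, 2 were past the criteria and higher, 5 were higher by adjusted p alone (23.2% of all genes), and the list median was 0.57. Without mature replicate 4, 1 STAT was past the criteria. Stat4, the factor of IL-12 signaling, went from 2.74 ± 0.13 to 62.2 ± 5.49 FPKM, a log2 fold change of 4.39 (edgeR adjusted p = 1.3e-07). Stat5a went from 13.2 ± 0.28 to 29.2 ± 4.73 FPKM (1.03, edgeR adjusted p = 8.7e-05) and Stat5b, its close relative, from 15.0 to 22.6 FPKM (0.48). Stat6, the IL-4 factor and the most abundant STAT in immature cells, was at 55.3 ± 2.25 and 58.6 ± 6.21 FPKM (-0.03, edgeR adjusted p = 0.81, and 0.04 without mature replicate 3).

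Receptor chains moved in both directions, 8 higher and 5 lower past the criteria of 29 tested, with a list median of 0.22. Of the chains for the 2 cytokines in the medium, Csf2ra, the GM-CSF-specific chain, went from 134 ± 4.26 to 51.0 ± 1.54 FPKM (-1.50, edgeR adjusted p = 1e-06). Csf2rb, the shared signaling chain and the most abundant receptor gene, went from 186 ± 3.58 to 249 ± 39.3 FPKM (0.31, edgeR adjusted p = 0.046). Il4ra, the IL-4 binding chain, rose from 35.8 ± 0.57 to 81.6 ± 8.49 FPKM (1.08). Other rises past the criteria included Il2ra, from 0.99 to 13.5 FPKM (3.66), Il15ra, from 1.71 to 7.55 FPKM (2.02), and Il7r, from 22.5 to 64.7 FPKM (1.41). They also included Il12rb2, from 2.02 to 16.4 FPKM (2.89, and 3.17 without mature replicate 3). Il12rb2 had 6.04 FPKM in mature replicate 3 and 19.0 to 21.3 FPKM in the other mature libraries. The falls included Il6ra, from 9.43 to 2.88 FPKM (-1.83), and Ifngr1, from 48.8 to 26.3 FPKM (-1.003). Il6st, which encodes gp130, rose by 1.19 on the log2 scale, or 1.38 without mature replicate 3. Without that library Ifngr1 was at -0.95, short of the fold criterion, and 11 chains in all were past the criteria. Il4ra, Csf2ra, Il7r, Il6ra, Il6st and Ifngr1 were named after their values were seen.

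Of 14 cytokine ligands tested, 4 were past the criteria and higher, none lower, with a median of 0.87. Il12b, a subunit of IL-12 and IL-23, went from 1.28 ± 0.29 to 10.2 ± 1.93 FPKM (2.87), and Il15 from 4.01 ± 0.32 to 12.4 ± 0.79 FPKM (1.52). Il12a and Il23a, the other 2, stayed under 1 FPKM on average. Ebi3, the most abundant, went from 30.3 to 58.5 FPKM (0.85). Csf2, which encodes GM-CSF itself, had too few counts to be tested.

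The other attenuators of JAK-STAT signaling held 2 genes past the criteria of 12, both higher, with a list median of -0.08, and 1 without immature replicate 2. Pias3, an inhibitor of STAT3, went from 4.81 ± 0.44 to 12.1 ± 0.61 FPKM (1.22), and the repressor Bcl6 from 2.28 to 5.14 FPKM (1.06). Ptpn6, which encodes the phosphatase SHP-1 and was the most abundant, fell by 0.69 on the log2 scale, from 65.7 ± 2.04 to 43.7 ± 2.00 FPKM. The list of SOCS box partners in the ubiquitin ligase was drawn broadly and also holds Cul2 and Rbx1, which mainly serve Cullin 2 ligases. Of its 9 tested genes, 0 were past the criteria in edgeR and 0 in DESeq2. An unadjusted p under 0.05 was found for 2, and the median was 0.06. Cul5, the scaffold, passed by adjusted p alone and was lower (3.25 to 2.78 FPKM, log2 fold change -0.34, edgeR adjusted p = 0.0498). With mature replicate 3 left out it was at -0.22 (edgeR adjusted p = 0.023), and by adjusted p alone 5 of the 9 passed, against 57.4% of all genes, with Cul2 (0.29) and Ube2f (0.20) higher and Rnf7 (-0.56), Elob (-0.26) and Cul5 lower. Nedd8, the most abundant in mature cells, was at 36.6 and 49.6 FPKM (0.35, edgeR adjusted p = 0.21), and at 0.13 without mature replicate 3, where it had 68.9 FPKM.

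Other proteins with a SOCS box were tested for 23 of 27 genes, with 6 higher and 4 lower past the criteria and a median of -0.03. Without mature replicate 2, and likewise without mature replicate 4, 6 in all were past the criteria. Spsb1, which binds inducible nitric oxide synthase, went from 1.02 ± 0.29 to 13.2 ± 0.84 FPKM (3.58, edgeR adjusted p = 1.4e-06). Spsb4, its relative, fell from 2.44 to 0.34 FPKM (-2.96) and Neurl2 from 8.55 to 2.31 FPKM (-1.99). Wsb1, the most abundant, fell by 0.59 on the log2 scale, from 24.8 to 17.8 FPKM. Asb10, Asb14, Asb15 and Asb18, which count among the 6, each had a mean of at most 0.60 FPKM, and the cardiac muscle transcripts rose in the same mature libraries. Their part in these 4 calls was not tested.

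Targets of STATs other than the family were split. Of 11 STAT5 targets 3 were higher and 3 lower past the criteria, with a median of -0.53, and 7 were lower by adjusted p alone (22.9% of all genes). The 3 higher were Il2ra, the cyclin gene Ccnd2 (8.17 to 28.2 FPKM, 1.67) and Bcl6. The list does not separate genes that STAT5 induces from genes that it represses. Igf1, a growth factor gene, fell from 13.9 ± 0.72 to 1.79 ± 0.14 FPKM (-3.06, edgeR adjusted p = 1.3e-07) and Bcl2, a survival gene, from 2.73 to 0.48 FPKM (-2.62). The kinase gene Pim1, the most abundant, fell by 0.31 on the log2 scale (edgeR adjusted p = 0.024). Socs2 and Cish, also STAT5 targets, rose in these libraries, as described above.

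Of 8 STAT3 targets 1 was higher and 2 lower past the criteria, with a median of -0.15. Bcl3 rose from 9.55 to 21.7 FPKM (1.08), Myc fell from 11.5 to 2.38 FPKM (-2.37), and Hif1a fell from 58.9 to 31.2 FPKM (-1.03, and -0.91 without mature replicate 3).

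The STAT6 targets had the lowest median of the lists, -2.07, with 7 of 12 lower and 1 higher past the criteria. Mrc1, the mannose receptor, fell from 21.7 ± 1.84 to 2.19 ± 0.25 FPKM (-3.43), and Chil3, the most abundant in immature cells, from 5511 to 732 FPKM (-3.02). Ccl22, a chemokine of mature dendritic cells, rose from 346 ± 9.85 to 3604 ± 228 FPKM (3.28). Macrophages also express several of these genes, and the macrophage markers fell in the same libraries. Their part in this list was not tested.

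Proteins reported to be bound or degraded by SOCS proteins were tested for 14 genes, of which 5 were higher and 2 lower past the criteria, with a median of 0.30. Ghr, the growth hormone receptor gene and 1 of these 5 and of the 8 receptor chains, had at most 0.07 FPKM in the immature libraries, 0.04 FPKM in mature replicate 1, and 0.82, 0.22 and 0.27 FPKM in mature replicates 2, 3 and 4. The cardiac muscle transcripts were high in the same 3 libraries, and their part in this call was not tested. Kit, a receptor bound by SOCS6, went from 0.55 ± 0.10 to 4.06 ± 0.75 FPKM (2.76, edgeR adjusted p = 3.5e-06), while Socs6 fell. These are transcript levels, and a link between the changes was not tested. Csf3r, the G-CSF receptor bound by SOCS3, fell from 1.74 to 0.55 FPKM (-1.76) and Irs2, an insulin receptor substrate, from 8.09 to 3.36 FPKM (-1.38). Rela, the most abundant, rose from 27.5 to 43.4 FPKM (0.56).

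**Figure D5:**
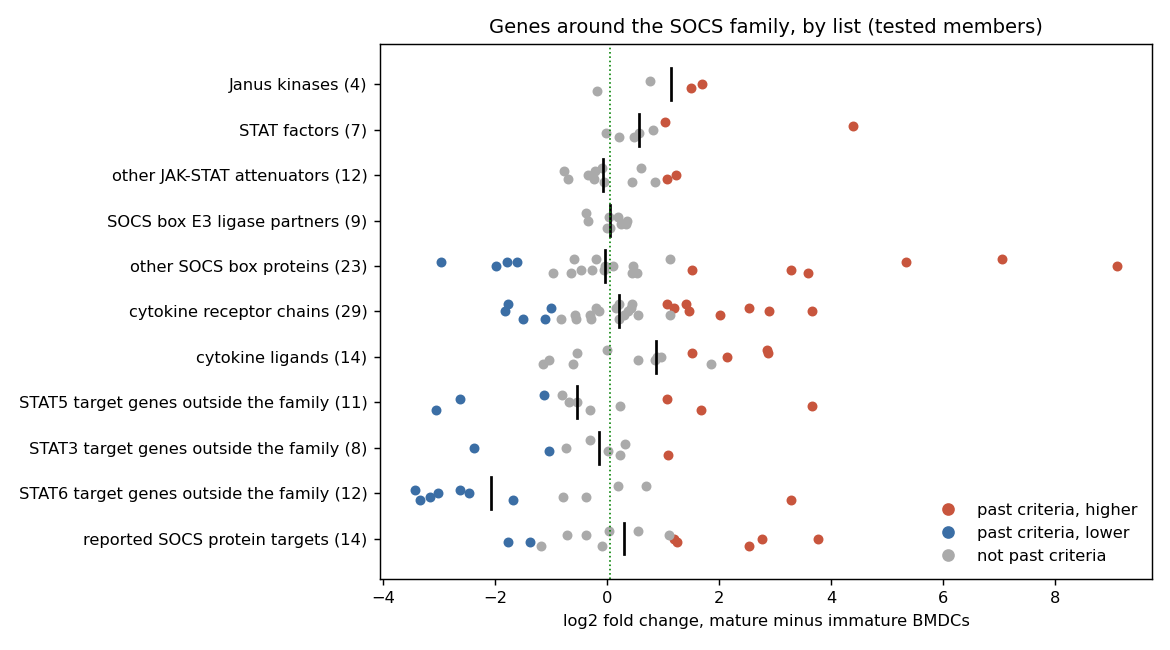
Log2 fold change, mature minus immature (x axis), of the tested genes in 11 lists around the SOCS family, with red and blue points past the criteria, grey points not, black ticks at the list median, and the dotted line at the median of all tested genes (0.05). Janus kinases have the highest median (1.13) and STAT6 targets the lowest (-2.07).

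Genes that varied across the 7 libraries most like Cish, Socs1, Socs2 and Socs3 were named by Pearson's r of log2 CPM among 4176 genes with a mean of at least 10 FPKM, as a description. With 2 groups in the libraries, any gene with a like group difference gives a high r. Closest to Cish were Jaml, Cpne2 and Gm15459 (r = 0.99 to 1.00), and 689 genes had an r above 0.9. Closest to Socs2 were Il4ra, Tnfsf4 and Cd86 (r of 1.00 when rounded), among 736 genes above 0.9. Cd86, the costimulatory ligand that marks mature cells, had 40.1, 40.5 and 38.7 CPM in immature and 360, 444, 379 and 460 CPM in mature libraries. Closest to Socs1 were Bcl2a1b, Tmem134 and Rpl22, all of which were highest in mature replicate 3, as Socs1 was. Socs3 had 1 gene above 0.9, H2bc4 (r = 0.91), so its library-to-library pattern was shared by few genes.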

How the data were processed

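The authors deposited, per gene and library, raw counts and FPKM (rounded to 2 decimals). The submitters' processing notes name cutadapt 1.9, HISAT2 2.2.1, StringTie 2.1.6, DESeq2 and edgeR without roles, and the build mm9, whereas gene coordinates equal GENCODE M21 (GRCm38) for 25805 of 28588 matched identifiers and are given as GRCm38. Libraries were poly(A)-selected and stranded (dUTP), and the strand setting of counting is not given in the sources used here.

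Counts of all 7 libraries were fitted in R 4.3.3 with edgeR 4.0.16 (filterByExpr, TMM, quasi-likelihood test, Benjamini-Hochberg over 17461 genes), tested on simulated data. The SE is the log2 fold change divided by the square root of F. Alternatives were DESeq2 1.42.0, RLE and upper quartile scaling, other filters, limma 3.58.1 on log2(FPKM + 1) or + 0.1, each library left out, a replicate block and, added after seeing the data, mature replicate 1 alone and mature replicates 1 and 3 left out.

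Members and lists were chosen with earlier results of these data known. Named are all members and, per list, the 3 largest changes past the criteria with at least 1 FPKM in the higher group, and the most abundant gene over all libraries. Correlated genes needed a mean of at least 10 FPKM. Other genes were named after their values were seen. Exon lengths are from GENCODE M21 and promoters from RefSeq. Protein sequences were not analysed here, and some list genes and 1 target list are not reported here.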

Additional observations from a re-analysis of the deposited data

Results flagged for a closer look

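In the mature group of 4 libraries, the gap of the highest or lowest library to its nearest neighbour, as a share of the group's range, was compared with Dixon's 95% critical value for 62 values. Chance gives about 1 in 20 values, or 3.1 of 62, and 9 were above it, 7 of them through mature replicate 3. Socs1 (0.888) had 51.3 CPM in mature replicate 3 and 31.0 to 33.3 CPM in the others. Nedd8 (0.909), Il15 (0.878) and Pim1 (0.945) were also highest in that library. Jak2 (0.873), Csf2rb (0.854) and Kit (0.888) were lowest in it, with Jak2 at 1233 CPM against 1647.6 to 1708 CPM. Spsb1 (0.831) was highest in mature replicate 4, at 65.7 CPM. The summed FPKM of the cardiac muscle markers (0.931) was low in mature replicate 1, at 12.3 FPKM. The part of exon length in the values of mature replicate 3 was not tested gene by gene.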

How the results depend on the processing

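Socs2, Socs6, Cish and Socs1 kept their direction and their side of the adjusted p limit in the 17 alternatives with more than 1 mature library, with log2 fold changes of 1.46 to 1.60, -1.97 to -1.62, 0.85 to 1.02 and 0.63 to 0.92. Against mature replicate 1 alone, where the spread comes from the immature libraries and the lone library is assumed to vary like them, they were 1.44, -1.84, 0.73 and 0.61. Socs3 changed sign without immature replicate 3 (-0.018), without mature replicate 3 (-0.071) and against mature replicate 1 alone (-0.52), with a range of -0.071 to 0.32 without each library, and the cause was not tested. The family count of 2 past the criteria was 2 in each of the 7 fits that left out 1 library, 3 under upper quartile scaling, limma on log2(FPKM + 0.1) and without mature replicates 1 and 3, and 5 with no fold criterion. The summed level ratio of 1.58 ranged from 1.54 to 1.63 without each library.

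Over all genes 4037 were past the criteria, 2300 higher. The count was 2665 among genes that reached 1 FPKM in 3 libraries, 1768 in limma on log2(FPKM + 1), 2561 with a pseudocount of 0.1, 1716 in limma with no filter and 8053 with no fold criterion. It ranged from 3646 to 4052 without each library. Among the lists, the other SOCS box proteins went from 10 past the criteria to 4 in limma on log2(FPKM + 1). Upper quartile scaling shifted the median log2 fold change of all genes by 0.11. Replicate numbers are shared by the groups, and the deviations of same-numbered libraries had correlations of 0.04, -0.01 and 0.02. With so few libraries, and mature replicate 3 apart from its group, these values cannot settle whether same-numbered libraries share a culture. With the replicate block, which leaves out mature replicate 4, 3480 genes were past the criteria, with 2 members, and Socs5 was at 0.36 (edgeR adjusted p = 0.12). The planned protein comparison was not run. Counts of 631 or more per library limit no member, and precision is set by the spread between libraries.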
